A study of Mus musculus with 6 samples.

Results

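The JAK-STAT pathway carries cytokine signals from the cell surface to the nucleus. A cytokine brings receptor chains together, the Janus kinases (JAKs) bound to them phosphorylate the chains and the STAT proteins that dock there, and the STATs pair and move to the nucleus to switch on genes. The receptor chain gp130, encoded by IL6ST, is shared by the receptors of the IL6 family of cytokines and signals mainly through JAK1, JAK2, TYK2 and STAT3. In colorectal tumours this route is known for promoting the growth and survival of the tumour cells. This account covers 9 genes of that pathway, chosen by symbol. They are the STAT genes STAT2, STAT3, STAT5A, STAT5B and STAT6, the kinase genes JAK1, JAK2 and TYK2, and IL6ST. Each symbol matched 1 row among the 31456 rows of the count table.

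Messenger RNA was sequenced from HCT116 cells, a human line established from a colorectal carcinoma. There were 3 libraries of an oxaliplatin-resistant form, numbered 1 to 3, and 3 libraries of the parental form, likewise numbered. Oxaliplatin is a platinum drug that damages DNA, and the title of the study links resistance to it with STAT3 activation. The labels give neither the way the resistant cells were obtained, nor a drug treatment or time at harvest, nor whether replicates were grown as separate cultures. The p-values therefore refer to the spread among these 6 libraries, which may be technical, and resistance cannot be told apart from other differences between the forms. The labels name the mouse as the organism, whereas the tables carry human gene identifiers.

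The libraries held 20246878 to 32138423 counts each. The first principal component of log2 CPM, counts scaled to library size, held 78.6% of the variance and separated the forms. On the second component, with 8.61% of the variance, parental replicate 2, at -21.2, lay away from the other parental libraries, at 7.85 for replicate 1 and 14.2 for replicate 3. The colorectal epithelial markers with a row numbered 9, with a summed level of 2578 to 2722 CPM in resistant and 2765 to 3156 CPM in parental libraries. Of these, CDX1 had no more than 3 counts in any library, VIL1 0 to 4 counts and KRT20 7 to 25 counts. By the test and threshold given below, CDH1, KRT19 and KRT20 were higher in resistant cells, EPCAM, KRT8 and KRT18 were lower, and CDX2 did not pass. The blood cell markers PTPRC and CD3E and the fibroblast markers COL1A2, DCN and LUM had no more than 3 counts in any library. The summed fibroblast list of 6 genes, nearly all of it COL1A1, was 39.3 to 44.9 CPM in resistant and 22.5 to 26.1 CPM in parental libraries. The fibroblast markers PDGFRB and COL3A1 were also higher in resistant libraries without overlap, on few counts. PDGFRB had 17, 13 and 15 counts in resistant replicates 1, 2 and 3, against 5, 6 and 2 in parental replicates 1, 2 and 3. COL3A1 had 5, 11 and 9 counts against 1, 1 and 0, in the same order. The summed blood cell markers, nearly all CD68, were 15.7 to 18.1 CPM in resistant and 12.4 to 13.1 CPM in parental libraries. The part of these markers in the results was not tested.

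Of the 9 genes 8 had enough counts to be tested. Between the resistant and the parental form IL6ST, STAT2 and TYK2 were higher, STAT6 was lower, and STAT3, STAT5B, JAK1 and JAK2 did not pass the threshold. Throughout, a gene passes where the quasi-likelihood test of edgeR gives a p under 0.05 after adjustment over all tested genes. The 4 genes called among the 8 tested stand beside a background of 53.8% of the 16605 tested genes called in either direction, with 27.3% higher and 26.5% lower. Of the genes called, 50.8% were higher, and with library sizes alone as the scaling 65.3% were. The share called among these genes was therefore close to that of all genes. The median log2 fold change of the 8 genes was 0.10, and that of all tested genes was 0.02. Only the IL6ST call kept its side of the threshold under each of the 17 alternative settings, whose values for the other genes are given below where they differ. In bulk RNA, more cells that carry a transcript and more transcript per cell cannot be told apart.

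**Figure D1:**
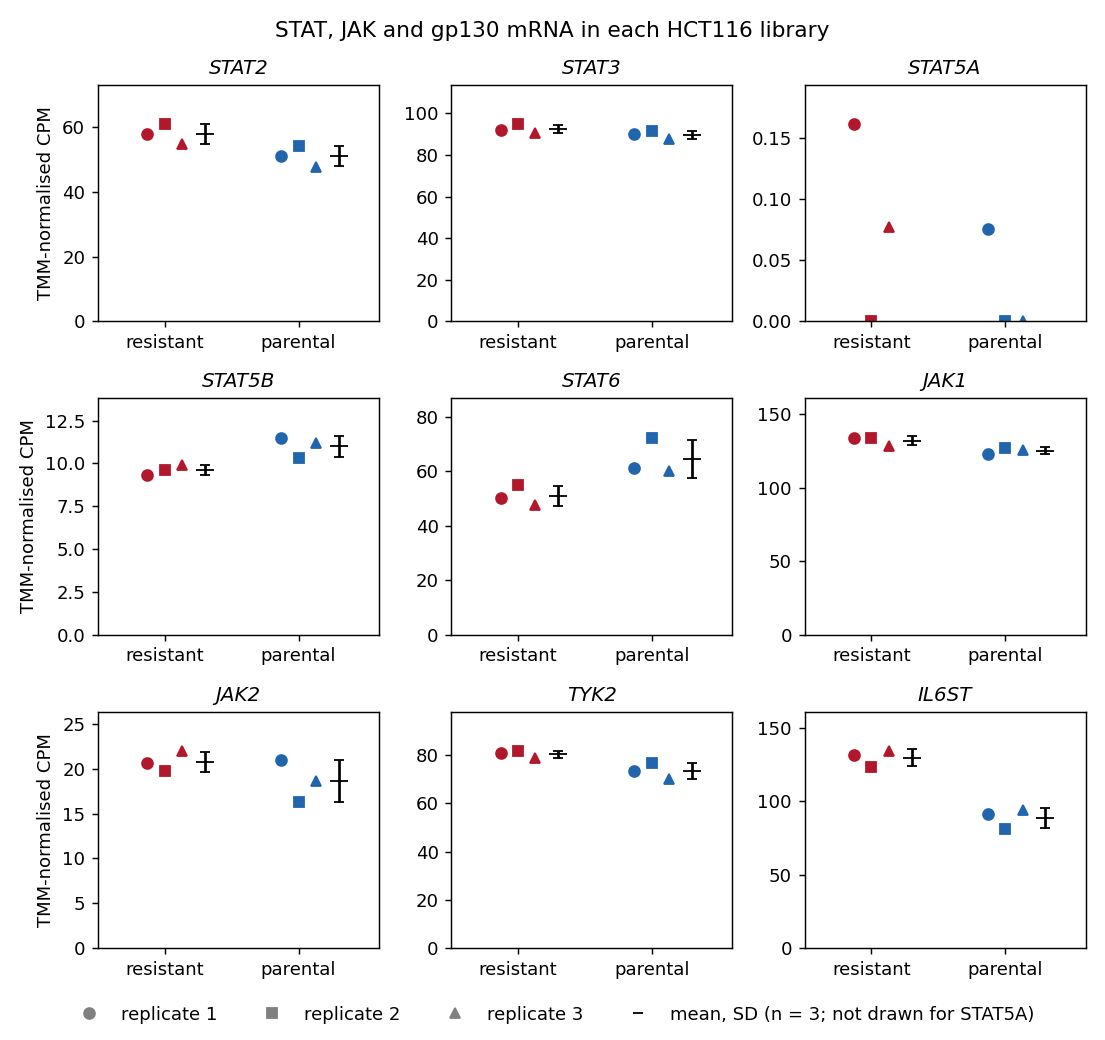
TMM-normalised CPM of each gene (vertical axis, from 0, with its own scale) in the 3 resistant and 3 parental HCT116 libraries, with points for libraries and a bar for the mean and SD, not drawn for STAT5A. IL6ST lies at 123 to 134 CPM in resistant and 81.1 to 93.6 CPM in parental libraries, while the STAT3 values of both forms lie between 87.6 and 94.7 CPM.

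The receptor gene IL6ST (ENSG00000134352.20) had 131, 123 and 134 CPM in resistant replicates 1, 2 and 3, against 90.9, 81.1 and 93.6 CPM in parental replicates 1, 2 and 3. These levels rested on 3266, 3606 and 3479 counts in the resistant and 2420, 2493 and 1839 counts in the parental libraries. No parental library reached the level of the lowest resistant one. The mean was 130 ± 5.57 CPM in resistant and 88.5 ± 6.62 CPM in parental cells (SD, n = 3 each). The fitted ratio was 1.47-fold, or 0.55 ± 0.06 (SE) as a log2 fold change, with a 95% interval of 0.42 to 0.68 (edgeR adjusted p = 1.1e-05). A larger absolute log2 fold change was found for 23.0% of all tested genes. Without parental replicate 2, the library with the lowest level, the log2 fold change was 0.49.

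Among the STAT genes, STAT3 (ENSG00000168610.14), the factor that gp130 receptors mainly use, was nearly level between the forms. It had 92.1, 94.7 and 90.5 CPM in resistant replicates 1, 2 and 3, against 90.2, 91.3 and 87.6 CPM in parental replicates 1, 2 and 3. The ranges overlapped. The SD over libraries was 2.27% of the mean in resistant and 2.11% in parental cells, and counting error alone, as the inverse square root of the count, amounts to 1.89% to 2.41% at its 1721 to 2809 counts. On the FPKM scale the SD of STAT3 was 0.959% of the mean in resistant and 5.92% in parental cells. The 95% interval of the log2 fold change ran from -0.05 to 0.14, a ratio of 0.963 to 1.10, with an edgeR adjusted p of 0.44. Of all tested genes 91.3% had a larger absolute log2 fold change. With library sizes alone as the scaling, the log2 fold change of STAT3 was 0.14 with an edgeR adjusted p of 0.020, where the 17 alternatives spanned 0.020 to 0.81. These are mRNA levels, and the phosphorylation by which STAT3 is activated was not measured.

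STAT6 (ENSG00000166888.12), the factor of IL4 and IL13 signalling, was the STAT gene that fell. Its level was 50.0, 54.8 and 47.6 CPM in resistant replicates 1, 2 and 3, against 61.1, 72.3 and 60.0 CPM in parental replicates 1, 2 and 3. Every resistant library lay below every parental one. The STAT6 log2 fold change was -0.35 ± 0.08 (SE), 1.27-fold lower, with an edgeR adjusted p of 0.0035. Parental replicate 2 had the highest STAT6 level. Without it the log2 fold change was -0.25, with an adjusted p of 0.0014 in a range of 6.9e-09 to 0.068 over the alternatives.

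STAT2 (ENSG00000170581.14), which acts with IRF9 in the response to type I interferon, had 57.9, 60.9 and 54.8 CPM in resistant replicates 1, 2 and 3, against 51.1, 54.1 and 47.9 CPM in parental replicates 1, 2 and 3. The groups did not overlap, and the lowest resistant library stood close to the highest parental one. STAT2 was 1.13-fold higher, with a log2 fold change of 0.18 ± 0.06 (SE) and an edgeR adjusted p of 0.026. The STAT2 call was lost without resistant replicate 1 or 2 and without parental replicate 1 or 3, at adjusted p-values of 0.074, 0.11, 0.081 and 0.13, and it ran from 0.0015 to 0.13 over the 17 alternatives.

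STAT5B (ENSG00000173757.9), a factor of growth hormone and prolactin signalling, had 9.32, 9.61 and 9.91 CPM in resistant replicates 1, 2 and 3, against 11.5, 10.3 and 11.2 CPM in parental replicates 1, 2 and 3. The groups did not overlap, but the adjusted p of 0.065 missed the threshold, with a 95% interval of the log2 fold change of -0.37 to -0.01. Without parental replicate 2 the adjusted p was 0.030 and the log2 fold change -0.24, where the 17 alternatives spanned 0.030 to 0.54. Its paralog STAT5A (ENSG00000126561.16) had 4, 0 and 2 counts in resistant replicates 1, 2 and 3, against 2, 0 and 0 counts in parental replicates 1, 2 and 3. Levels near the floor of 3 counts in a library allow no fold, and STAT5A was not tested. A floor of 3 counts corresponds to 0.0933 to 0.148 CPM and covers counting error only. The coding sequences of STAT5A and STAT5B are closely similar, so the division of reads between them is uncertain.

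The kinase genes differed little between the forms. TYK2 (ENSG00000105397.13), a kinase of interferon and IL12 family receptors that also binds gp130, had 80.7, 81.8 and 78.8 CPM in resistant replicates 1, 2 and 3, against 73.5, 77.0 and 70.3 CPM in parental replicates 1, 2 and 3. The groups did not overlap, and TYK2 was 1.09-fold higher, by 0.13 ± 0.05 (SE) on the log2 scale (edgeR adjusted p = 0.046). The TYK2 call lay at the threshold. Leaving out any single library other than parental replicate 2 raised the adjusted p above the threshold, to 0.12, 0.12 and 0.074 without resistant replicates 1, 2 and 3 and to 0.14 and 0.22 without parental replicates 1 and 3. It was 0.070 with RLE size factors, within a range of 0.0022 to 0.22 over the alternatives.

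JAK1 (ENSG00000162434.12), the main kinase of gp130 signalling, had 134, 134 and 129 CPM in resistant replicates 1, 2 and 3, against 123, 127 and 126 CPM in parental replicates 1, 2 and 3. The lowest resistant library lay just above the highest parental one. Its 95% interval of the log2 fold change was -0.02 to 0.17, with an edgeR adjusted p of 0.16. With library sizes alone JAK1 passed, at a log2 fold change of 0.17 and an adjusted p of 0.0049, within a range of 0.0049 to 0.52. JAK2 (ENSG00000096968.13), which also serves the receptors of growth hormone and erythropoietin, had 20.6, 19.8 and 22.0 CPM in resistant replicates 1, 2 and 3, against 21.0, 16.3 and 18.7 CPM in parental replicates 1, 2 and 3. The ranges overlapped, and the adjusted p was 0.15 with a 95% interval of the log2 fold change of -0.04 to 0.35. The JAK2 value depended most on parental replicates 1 and 2. Its log2 fold change was 0.16 with all libraries and 0.058 (edgeR adjusted p = 0.53) without parental replicate 2. Without parental replicate 1 it was 0.25 (edgeR adjusted p = 0.030), and without resistant replicate 2 or 3 it was 0.19 or 0.11.

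**Figure D2:**
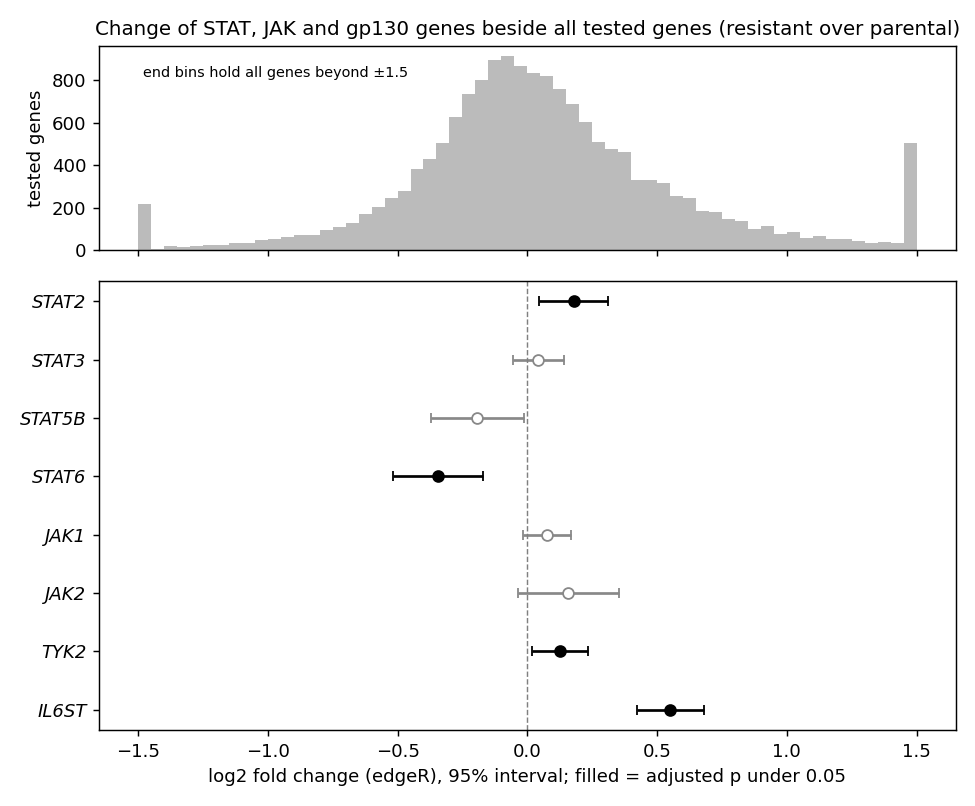
Lower panel, log2 fold change (resistant over parental, edgeR, horizontal axis) of the 8 tested genes with 95% intervals, filled where the adjusted p is under 0.05. Upper panel, the number of tested genes in each interval of log2 fold change, against which IL6ST at 0.55 and STAT6 at -0.35 lie inside the bulk of the distribution.

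The ranges of the 2 groups did not overlap for 6 of the 8 genes, beside 61.2% of all tested genes. The non-overlapping genes that were higher were STAT2, JAK1, TYK2 and IL6ST, beside 31.3% of all tested genes, and those that were lower were STAT5B and STAT6, beside 29.9%. Within the parental group replicate 2 had the highest level of STAT2, STAT3, STAT6, JAK1 and TYK2 and the lowest of STAT5B, JAK2 and IL6ST. Within the resistant group replicate 2 had the highest level of STAT2, STAT3, STAT6 and TYK2 and the lowest of JAK2 and IL6ST. What set replicate 2 apart was not tested.

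The next question was whether STAT3 changed differently from its paralogs, the kinases and gp130. For each library the log2 ratio of STAT3 to another gene was taken, which cancels the library's scaling, and the groups were compared by a two-sided exact permutation test over 7 pairs. With 3 against 3 libraries this exact test cannot go below p = 0.10. STAT5A, with libraries at 0 counts, gives no ratio. Because the ratio is not scaled to gene length, it compares libraries and not the abundance of the genes.

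Relative to IL6ST, STAT3 had a ratio of 0.702, 0.768 and 0.675 in resistant replicates 1, 2 and 3, against 0.991, 1.13 and 0.936 in parental replicates 1, 2 and 3. The groups did not overlap. The log2 ratio averaged -0.49 ± 0.10 in resistant and 0.02 ± 0.14 in parental libraries (SD, n = 3 each), a difference of -0.51 (exact permutation p = 0.10, the smallest possible, adjusted p = 0.14). Relative to STAT6, the ratio was 1.84, 1.73 and 1.90 in resistant replicates 1, 2 and 3, against 1.48, 1.26 and 1.46 in parental replicates 1, 2 and 3. That is a difference of 0.38 on the log2 scale without overlap (exact permutation p = 0.10, adjusted p = 0.14).

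The other differences were smaller. STAT3 relative to STAT5B differed by 0.24, relative to STAT2 by -0.14 and relative to TYK2 by -0.09 on the log2 scale, in each case without overlap (exact permutation p = 0.10, adjusted p = 0.14 for each). Relative to the kinase genes JAK1 and JAK2 the difference was -0.03 and -0.12, with overlapping groups (exact permutation p = 0.30 and 0.50, adjusted p = 0.35 and 0.50). The ratio of STAT3 to JAK1 ran from 0.687 to 0.709 in resistant and 0.698 to 0.732 in parental libraries. Since the smallest p of this exact test lies above the threshold, it could call none of the 7 pairs, whatever their difference. The sign of each difference was the same in each of the 9 alternatives of its pair, but most of these could not have changed it. The mean of same-numbered differences equals the main difference by construction. For pairs without overlap, leaving out 1 library cannot change the sign either.

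**Figure D3:**
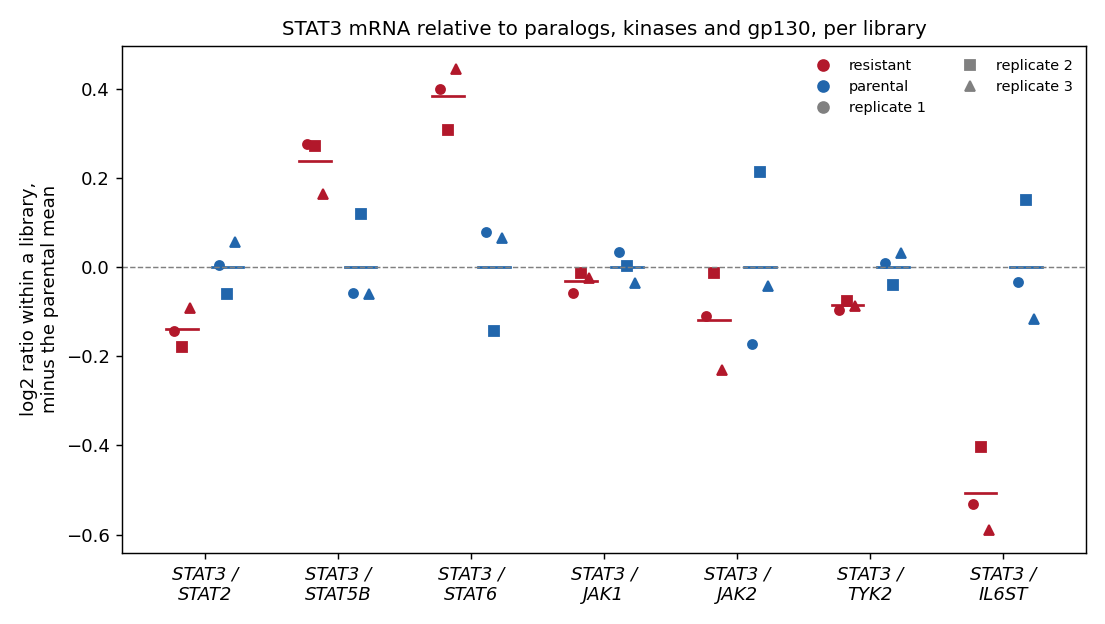
Log2 ratio of STAT3 to each of 7 other genes within a library (vertical axis), with the mean of the parental libraries set to 0, resistant libraries left of parental ones and short lines for group means. The resistant libraries lie below the parental ones for IL6ST, by 0.51 on average, and above them for STAT6, by 0.38.

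Levels were compared between genes on the authors' expression values, taken here as FPKM, which are scaled to gene length and library size. The lengths used were not available here, and the order of the genes rests on them. In resistant cells TYK2 was highest at 56.9 ± 2.39 FPKM, followed by JAK1 at 29.2 ± 1.22, STAT3 at 25.1 ± 0.240, STAT6 at 23.4 ± 1.76, IL6ST at 23.3 ± 1.19 and STAT2 at 19.2 ± 1.47 FPKM (SD, n = 3 each). JAK2 and STAT5B were far lower, at 4.18 ± 0.147 and 3.63 ± 0.226 FPKM. Among these neighbours the ranges of STAT3 and STAT6 overlapped, as did those of STAT6 and IL6ST.

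In parental cells the order was TYK2 at 47.6 ± 2.70, STAT6 at 28.7 ± 2.27, JAK1 at 26.0 ± 0.168, STAT3 at 23.2 ± 1.38, STAT2 at 16.3 ± 0.929 and IL6ST at 13.6 ± 0.523 FPKM (SD, n = 3 each). STAT5B had 3.95 ± 0.445 and JAK2 3.55 ± 0.301 FPKM, with overlapping ranges, while no other neighbours overlapped. On the FPKM scale STAT6 thus stood above JAK1 and STAT3 in parental cells and below both in resistant cells, there with ranges that overlapped those of STAT3. IL6ST stood on that scale below STAT2 in parental cells and above it in resistant cells. By TMM-normalised CPM, which are not scaled to length, these places did not switch. STAT6, at 50.8 CPM in resistant and 64.5 CPM in parental cells, lay below STAT3 and JAK1 in both forms, and IL6ST lay above STAT2 in both. STAT5A was listed at 0.13, 0 and 0.2 FPKM in resistant replicates 1, 2 and 3, against 0.02, 0 and 0 FPKM in parental replicates 1, 2 and 3.

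The FPKM did not follow the counts by a single factor per gene. With CPM here scaled by library size alone, without TMM, the CPM per FPKM of IL6ST ranged from 5.22 to 6.55 between libraries. For JAK1 it ranged from 4.55 to 4.74 only. Between genes the factor was 1.41 to 1.57 for TYK2, 2.10 to 2.28 for STAT6 and 3.52 to 3.87 for STAT3. The top place of TYK2 thus rests on a low factor, whose source was not tested. By TMM-normalised CPM, TYK2 had 80.4 in resistant and 73.6 in parental cells. That lies below STAT3, at 92.4 and 89.7 CPM, and JAK1, at 132 and 125 CPM. The ratio of mean FPKM of IL6ST between the forms was 1.71, against 1.47 for the fitted ratio of TMM-normalised counts. Part of that gap lies in the scaling. The log2 fold change of IL6ST was 0.55 with TMM, 0.64 with library sizes alone and 0.77 on FPKM with a pseudocount of 0.1.

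**Figure D4:**
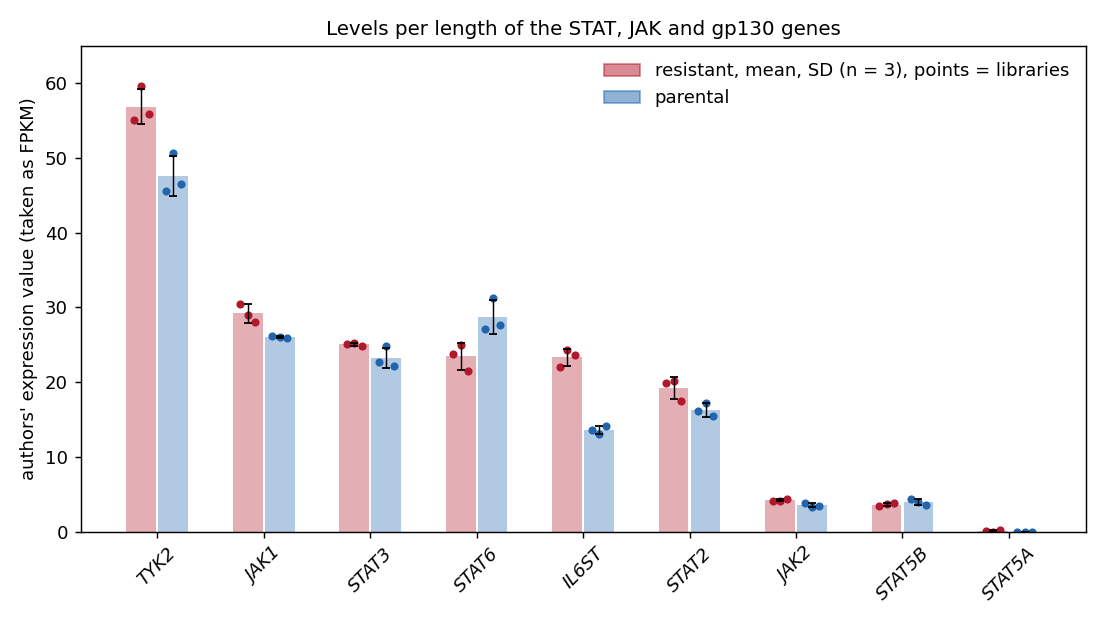
Authors' expression value, taken as FPKM (vertical axis, from 0), of the 9 genes, ordered by the resistant mean, with bars for means, error bars for SD (n = 3) and points for libraries. On this scale TYK2 is highest in both forms, at 56.9 FPKM in resistant and 47.6 FPKM in parental cells, and STAT5A is at the bottom. The order rests on the gene lengths used.

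STAT4 and JAK3 belong to the same families. STAT4 (ENSG00000138378.19), known mainly from IL12 signalling in lymphocytes, had 142, 199 and 135 counts in resistant replicates 1, 2 and 3, against 69, 84 and 48 counts in parental replicates 1, 2 and 3. STAT4 was 2.27-fold higher, at 5.90 ± 0.820 CPM in resistant and 2.59 ± 0.144 CPM in parental cells (SD, n = 3 each, edgeR adjusted p = 2.4e-05), a larger change than in any of the 8 tested genes above. JAK3, the kinase of receptors with the common gamma chain, had 6.18 ± 0.257 CPM in resistant and 6.85 ± 0.256 CPM in parental cells and did not pass (edgeR adjusted p = 0.22).

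Of 7 listed ligand genes of gp130 5 were tested, of which 1 was higher, 2 were lower and 2 did not pass. Over all tested genes 27.3% were higher and 26.5% lower. The median log2 fold change of the ligand genes was -0.18, beside 0.02 over all tested genes. CTF1, the gene of cardiotrophin, was 2.19-fold higher on 55, 74 and 48 counts in resistant replicates 1, 2 and 3, against 27, 24 and 25 counts in parental replicates 1, 2 and 3 (edgeR adjusted p = 0.0010). IL11 was 1.88-fold lower on 18, 23 and 16 counts in resistant replicates 1, 2 and 3, against 37, 40 and 26 counts in parental replicates 1, 2 and 3 (edgeR adjusted p = 0.0039). CLCF1, a cardiotrophin-like cytokine gene, fell by 0.42 on the log2 scale (edgeR adjusted p = 0.0069). LIF, the gene of leukemia inhibitory factor, was the ligand gene with by far the most counts, at 157 ± 9.02 CPM in resistant and 155 ± 5.14 CPM in parental cells (SD, n = 3 each), with a 95% interval of the log2 fold change of -0.10 to 0.13 (edgeR adjusted p = 0.82). CNTF, the gene of ciliary neurotrophic factor, did not pass (edgeR adjusted p = 0.52). IL6 had 2, 1 and 1 counts in resistant replicates 1, 2 and 3 and 0 counts in each parental library, and OSM had 3, 0 and 2 counts in resistant replicates 1, 2 and 3 and 0 counts in each parental library, all at or under the floor of 3 counts.

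Of the 6 receptor chains that pair with gp130 or resemble it, 5 were tested, of which 2 were higher, 1 was lower and 2 did not pass. The background over all tested genes was 27.3% higher and 26.5% lower. The median log2 fold change of the receptor chains was 0.16, beside 0.02 over all tested genes. LIFR, the chain that joins gp130 to bind LIF, had 69.3, 67.9 and 72.5 CPM in resistant replicates 1, 2 and 3, against 45.8, 34.6 and 44.9 CPM in parental replicates 1, 2 and 3. All resistant libraries lay above the parental ones, and LIFR was 1.68-fold higher (log2 fold change 0.75 ± 0.09 SE, edgeR adjusted p = 1.0e-04). OSMR, the oncostatin M receptor chain, rose 1.16-fold (edgeR adjusted p = 0.0011), and IL27RA, the IL27 receptor chain, fell by 0.33 on the log2 scale (edgeR adjusted p = 0.0017). IL6R, the IL6-binding chain, had 15.0 ± 0.303 CPM in resistant and 16.3 ± 0.481 CPM in parental cells (adjusted p = 0.14), and IL11RA had 7.28 ± 0.238 CPM in resistant and 6.52 ± 0.182 CPM in parental cells (adjusted p = 0.17). The groups did not overlap for either gene, as for 61.2% of all tested genes. IL11RA passed with library sizes alone, at an adjusted p of 0.037, and on filtered FPKM with either pseudocount, at 0.024 in both, where its 17 alternatives spanned 0.024 to 0.46. CNTFR had no more than 2 counts in any library. On the FPKM scale OSMR had 29.4 ± 0.677 in resistant and 24.1 ± 1.42 in parental cells, LIFR 7.76 ± 0.438 in resistant and 4.40 ± 0.468 in parental cells, and IL6R 3.40 ± 0.376 in resistant and 3.55 ± 0.456 in parental cells (SD, n = 3 each).

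Among 16 other receptor genes whose products signal through JAKs, 12 were tested, of which 4 were higher, 1 was lower and 7 did not pass. These calls stand beside 27.3% higher and 26.5% lower among all tested genes. The median log2 fold change of the 12 genes was -0.01. The 2 chains of the interferon gamma receptor moved apart, with IFNGR1 1.59-fold higher (edgeR adjusted p = 3.9e-06) and IFNGR2 1.19-fold lower (edgeR adjusted p = 0.0023). EPOR, the erythropoietin receptor gene, was 1.42-fold higher and IFNAR2, a chain of the type I interferon receptor, 1.23-fold higher (edgeR adjusted p = 3.0e-04 and 0.0015). IL2RG, GHR, PRLR and CSF3R had too few counts for the test. Without parental replicate 2 the number of lower genes was 2.

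Of 18 listed inhibitors of the pathway 17 were tested, of which 3 were higher, 3 were lower and 11 did not pass, with a median log2 fold change of 0.02. Of all tested genes 27.3% were higher and 26.5% lower. The inhibitor counts depended on the setting, with 5 higher and 2 lower without parental replicate 1, 6 higher and 3 lower with upper-quartile factors, 8 higher and 2 lower with library sizes alone, and 5 higher and 3 lower with no filter on low counts. SOCS1, a feedback inhibitor of the JAKs, was 2.32-fold higher on 49, 70 and 68 counts in resistant replicates 1, 2 and 3, against 28, 22 and 26 counts in parental replicates 1, 2 and 3 (edgeR adjusted p = 9.1e-04). PTPN1, the gene of a phosphatase that acts on JAK2 and TYK2, was 1.34-fold higher (edgeR adjusted p = 5.6e-06). SOCS2 and SOCS6, other genes of the suppressor of cytokine signalling family, fell by 0.44 and 0.42 on the log2 scale (edgeR adjusted p = 3.0e-04 and 3.1e-04). SOCS3, the feedback inhibitor that binds gp130 and a target of STAT3, had 25.6 ± 0.328 CPM in resistant and 23.6 ± 1.01 CPM in parental cells (SD, n = 3 each, 95% interval of the log2 fold change -0.01 to 0.25, edgeR adjusted p = 0.098). SOCS3 passed with upper-quartile factors, at an adjusted p of 0.045, with library sizes alone, at 0.0082, and on filtered FPKM with pseudocounts of 1 and 0.1, at 0.044 and 0.046, in a range of 0.0082 to 0.33 over its alternatives.

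Of 18 tested genes known as targets of STAT3, 6 were higher, 6 were lower and 6 did not pass, with a median log2 fold change of 0.02. These shares are near the 27.3% higher and 26.5% lower of all tested genes and show nothing particular to the targets. ICAM1, a cell adhesion molecule gene, was 13.0-fold higher on 195, 207 and 194 counts in resistant replicates 1, 2 and 3, against 14, 21 and 9 counts in parental replicates 1, 2 and 3 (edgeR adjusted p = 5.7e-09). The growth regulator gene MYC and the survivin gene BIRC5 were lower, with log2 fold changes of -0.90 and -0.40, and HIF1A, a hypoxia factor gene, was higher at 0.44 (edgeR adjusted p = 6.2e-09, 1.9e-05 and 7.6e-06). Other transcription factors also act on each of these genes.

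**Figure D5:**
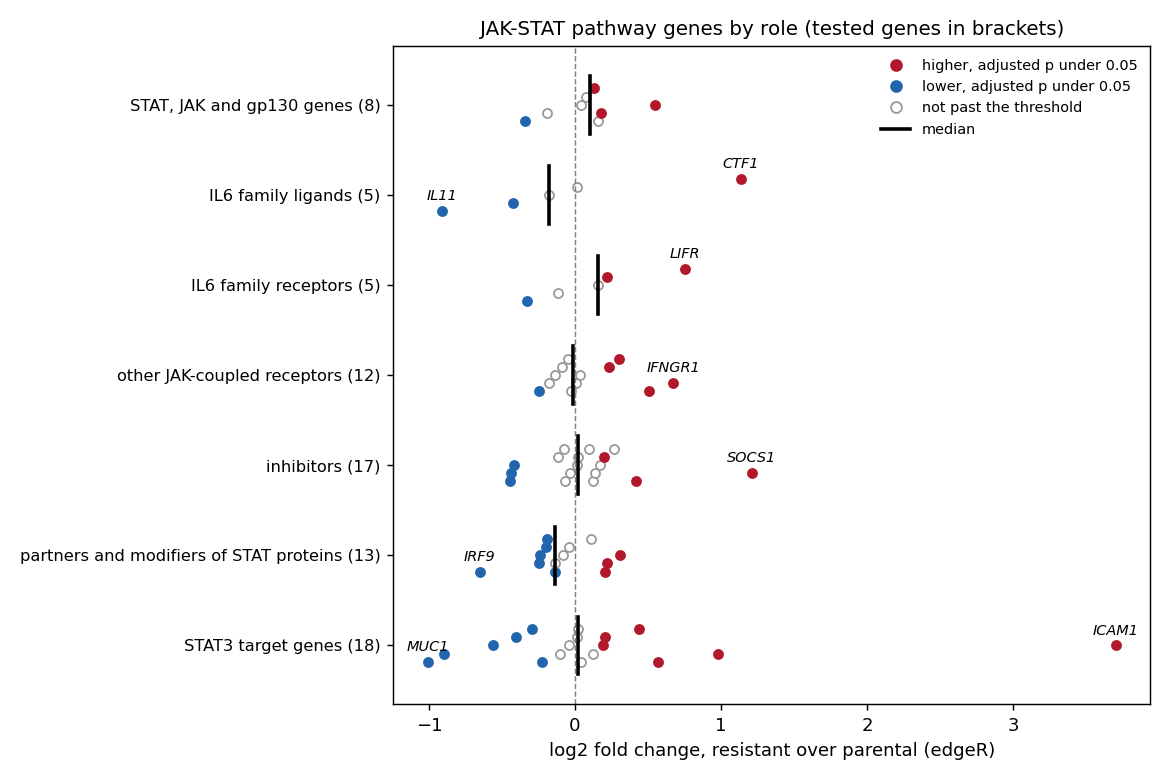
Log2 fold change (resistant over parental, edgeR, horizontal axis) of each tested gene of the pathway by role, red where higher and blue where lower at an adjusted p under 0.05, open where not past it, with a black line for the median of a list. In the list of STAT3 target genes 6 points are red, 6 blue and 6 open, and ICAM1 lies far to the right at 3.70.

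The genes whose profile over the 6 libraries was nearest to that of STAT3 were POFUT2, WDR45B and AADAT, at distances of 0.04, 0.04 and 0.04 on the log2 scale, beside a median of 0.35 over 11310 genes. Nearest to IL6ST were PREPL, ROCK2 and VHL, at 0.05, 0.05 and 0.06 beside a median of 0.76. The distance is the Euclidean one between log2(CPM + 0.5) values after each gene's mean is removed, and it describes these 6 libraries only. PREPL, ROCK2 and VHL had fitted log2 fold changes of 0.54, 0.53 and 0.56.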

How the data were processed

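The authors deposited gene counts, whole and not normalized, in 6 columns assigned to samples through the descriptions and titles in the labels. A second deposited table, with no unit in its header, was taken as FPKM computed by the authors. It served for levels between genes and in alternatives. Per the submitters' processing notes the builds are GRCm38 and mm10, although 30616 rows carry human Ensembl identifiers and the other 840 rows are gene models without one. Aligner, counter, annotation and strandedness were not stated in those sources, so reads of overlapping genes cannot be told apart. Sequences and coordinates are not reported, nor are some genes of the lists.

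Counts were fitted with edgeR 4.0.16 in R 4.3.3 (TMM, filterByExpr, robust glmQLFit and glmQLFTest, two-sided), with Benjamini-Hochberg adjustment over 16605 genes and a threshold of 0.05. The SE is the size of the log2 fold change over the square root of F, and intervals are at 95%. CPM are TMM-normalised, and the SD is over 3 libraries. FPKM were tested with limma 3.58.1 on log2(FPKM + 1) or log2(FPKM + 0.1), and DESeq2 1.42.0 and limma-voom were alternatives. Ratios to STAT3 were tested with scipy 1.17.1, and of 8 pairs planned the one with STAT5A could not be formed. The edgeR fit was tested on simulated data with known changes. Replicate pairs differed by more than sampling noise, with a chi-square per gene of at least 1.99.

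The genes and lists were chosen with earlier results of these data known, and described by counts without a set test. From each list up to 4 genes with the smallest adjusted p are named. The 3 nearest profiles were sought among tested genes with a symbol and a mean of at least 5 CPM. LIF, IL6, OSM, CNTFR, IL11RA and SOCS3, and the genes named for their low counts, were named after their values were seen.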

Additional observations from a re-analysis of the deposited data

How the results depend on the processing

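Of the 8 tested genes IL6ST kept its direction and its call in all 17 alternatives, with log2 fold changes of 0.49 to 0.77. No direction of the 8 genes was reversed in any of them. With library sizes alone, which moved the median log2 fold change of all genes by 0.09 and made 65.3% of the called genes higher (50.8% with TMM), 6 of the genes were called higher, with STAT3 at 0.14, JAK1 at 0.17 and JAK2 at 0.25. With DESeq2 1 gene was called higher, with STAT2 at 0.17 and TYK2 at 0.12 no longer past the threshold. TYK2 also missed it with RLE size factors (0.12) and with no filter on low counts (0.11). On FPKM with no filter none of the genes was called lower (0 of 9, since STAT5A is then fitted too), as STAT6 at -0.28 lost its call and STAT2 at 0.23 did too, whereas JAK1 passed at 0.16 on filtered FPKM with either pseudocount (0.16 in both). Over all genes the FPKM called 2807, 2804 and 2157 genes lower, with pseudocounts of 1 and 0.1 and with no filter, against 4399. The cause was not tested. Leaving out 1 library at a time called 1 to 3 of the genes higher and 1 to 2 lower. The log2 fold change then ranged from 0.13 to 0.22 for STAT2, -0.24 to -0.17 for STAT5B, 0.058 to 0.25 for JAK2 and 0.088 to 0.16 for TYK2. Among the other named genes, those that changed sign had not passed in the main fit. LIF ranged from -0.032 to 0.048 with 1 library left out and was at -0.0042 with no filter and at -0.12, -0.13 and -0.12 on FPKM. JAK3 was at 0.018, 0.028 and 0.018 on FPKM, and CNTF ranged from -0.30 to 0.026 with 1 library left out. On FPKM with a pseudocount of 1 the folds of low genes shrink, as for CTF1 (0.62) and ICAM1 (1.55).

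With the replicate number as a block, 3 of the 8 genes were called higher and 1 lower, as without it, and 5010 and 4963 of all genes against 4534 and 4399. The block changed no call of the 8 genes or of the other named genes, and the inhibitors were then 5 higher and 4 lower, against 3 and 3 without it. The deviations of same-numbered libraries correlated at 0.09, 0.21 and 0.05, and not every library correlated best with its own number, so the numbers were not taken to pair the libraries. With 3 same-numbered differences an exact sign-flip test of a STAT3 ratio cannot go below p = 0.25.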

Other observations

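Of 13 partners and modifiers of STAT proteins, all tested, 3 were higher, 6 were lower and 4 did not pass in edgeR's quasi-likelihood test, with a median log2 fold change of -0.14 beside 0.02 over all tested genes, of which 27.3% were higher and 26.5% lower. Without resistant replicate 1 the counts were 1 higher and 3 lower, without resistant replicate 3 the number higher was 1, with library sizes alone the number lower was 2, and on FPKM 1 gene was higher and 0 were lower by limma. IRF9, which joins STAT2 in the complex that answers type I interferon, had 4.74, 5.57 and 5.70 CPM in resistant replicates 1, 2 and 3, against 8.91, 7.32 and 9.11 CPM in parental replicates 1, 2 and 3. IRF9 was 1.57-fold lower (edgeR adjusted p = 6.8e-04), whereas STAT2 was 1.13-fold higher. On FPKM the IRF9 call was lost, with limma adjusted p-values of 0.097, 0.095 and 0.23. EGFR, a receptor kinase gene, and CREBBP, a histone acetyltransferase gene, fell by 0.19 and 0.24 on the log2 scale, and the kinase gene SRC rose by 0.21 (edgeR adjusted p = 0.0029, 0.0032 and 0.0047), calls that were lost on FPKM for all 3 genes. The EGFR call was also lost with library sizes alone, at a log2 fold change of -0.098 and an adjusted p of 0.081.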
